A study of Rattus norvegicus with 4 samples.

Results

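The genes described are 42 subunits of 5 groups of chromatin regulators, out of 32753 genes in the files: 9 of Polycomb repressive complex 2 (PRC2), 11 of PRC1, 8 of the trithorax group, 8 of SWI/SNF and 6 of NuRD. They were chosen by name from textbook membership, and each symbol matched 1 row. RNA-seq libraries were made at day 4 from embryoid bodies of the rat, aggregates of pluripotent cells that have begun to differentiate. There were 2 libraries from Kcnh2-/- rat embryonic stem cells, Kcnh2 being the gene of a potassium channel, and 2 libraries from wild-type (WT) cells. All were of strain DASD and grown by the same protocol, with CHIR9902, PD0325901 and Y27632 in the medium during aggregation. The protocol also listed 2 days in hanging drops of 20 ul, 24 hours with laminin and 1 day in DM medium. The labels give neither the part of Kcnh2 that was altered nor the number of lines or cultures, so p-values measure only the spread between these samples, which may be technical. Levels are in RPKM, a read count per length of transcript and size of library, and pairs of values are in the order of replicate 1 and then replicate 2.

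Polycomb complexes keep developmental genes silent. PRC2 methylates histone H3, and PRC1 adds ubiquitin to histone H2A and compacts chromatin, the canonical forms by reading the PRC2 mark through a CBX subunit. Trithorax complexes methylate a different residue of H3 at active or poised promoters and oppose Polycomb silencing. SWI/SNF slides and evicts nucleosomes with energy from ATP, and NuRD joins a remodelling motor to histone deacetylases. In mouse embryonic stem cells these complexes hold lineage genes in a poised state, and several of them exchange subunits as cells leave pluripotency.

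Libraries of the same number resembled each other in several respects, but not in all marker lists. The files' RPKM values summed to 1.09e+08 and 8.93e+06 in Kcnh2-/- and to 7.95e+07 and 1.17e+07 in WT, of which protein-coding genes gave 0.538% to 9.69%, and between 17610 and 17833 genes were above 0 in each library. The absolute read depth is unknown. Kcnh2 itself was low and lay lower in both Kcnh2-/- libraries, at 0.108 and 0.504 RPKM in Kcnh2-/- and 2.61 and 1.45 RPKM in WT, without passing the test (limma adjusted p = 0.980). Naive pluripotency markers (11 of 12 in the files) summed to 158 and 586 RPKM in Kcnh2-/- and 47.97 and 368 RPKM in WT, so the replicate 2 libraries of both groups held more of this RNA. Dppa3 alone gave 117 and 393 RPKM of this in Kcnh2-/- and 26.1 and 191 RPKM in WT. Its listed locus overlaps that of Nanog, so both values rest on how overlapping reads were divided. All 9 naive markers tested were higher in replicate 2 of both groups, against 39.5% of all genes tested. Formative epiblast markers (5 of 7 in the files) summed to 1186 and 638 RPKM in Kcnh2-/- and 444 and 1042 RPKM in WT. These sums did not follow the number, and most of each was Dnmt3b. Otx2 was listed at 0 in all libraries. Of the 3 formative markers tested, 1, Etv4, was higher in replicate 2 of both groups (33.3%, against 39.5% of all genes tested). Endoderm markers (8 of 8) summed to 46.8 and 2.85 RPKM in Kcnh2-/- and 207 and 52.3 RPKM in WT. Mesoderm and muscle markers (11 of 11) summed to 324 and 33.9 RPKM in Kcnh2-/- and 1727 and 97.7 RPKM in WT. Tagln alone gave 255 and 16.7 RPKM of this in Kcnh2-/- and 1329 and 54.9 RPKM in WT. Of the 7 mesoderm and muscle markers tested, 6 were lower in Kcnh2-/- within both numbers (85.7%, against 28.1% of all genes tested). A low gene can enter the test through its values in a single group or replicate number, so this count only describes the markers tested. Eomes was higher, at 11.5 and 9.79 RPKM in Kcnh2-/- and 8.70 and 9.05 RPKM in WT. Fibroblast markers (9 of 10 in the files), which feeder cells would bring, summed to 6.695 and 0.602 RPKM in Kcnh2-/- and 24.4 and 2.33 RPKM in WT, with Fap listed at 0 in all libraries. In such bulk samples fewer cells of a type and less RNA per cell cannot be told apart, and the part that cell makeup has in any difference below was not tested.

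None of the chromatin subunits differed between Kcnh2-/- and WT embryoid bodies past the threshold. Of the 42 genes, 39 passed the filter (at least 2 of the 4 libraries at 1 RPKM or above), and limma called 0 of the 39 at an adjusted p under 0.05, against 14 of 12355 genes tested (0.113%). At an unadjusted p under 0.05 there was 1 member, Cbx2, against 418 of all genes (3.38%). With the replicate number as a term limma again called 0 of the 39, against 0.227% of all genes tested, and likewise on protein-coding genes alone with that term, against 0.747%. The median log2 difference of the 39 was -0.042, against 0.0052 over all genes tested, and single members ran from -0.97 (Cbx2) to 0.99 (Cbx7). Both Kcnh2-/- values lay outside the WT values on the same side for 6 members, 1 higher (Rbbp7) and 5 lower (Cbx2, Pcgf2, Rbbp4, Arid1b and Mta2), while the other 33 overlapped. Over all genes tested the percentages were 16.7% higher and 15.3% lower, 32.0% in all, so such separation was no more common among the members. These 6 depended on the scaling between libraries: Cbx2 was the one gene still lower without overlap after each of median-of-ratios scaling, quantile normalization and scaling to the protein-coding sum. Median-of-ratios scaling gave 2 higher and 4 lower, against 17.2% and 14.9% of all genes tested. Quantile normalization gave 1 higher and 10 lower, against 15.0% and 13.6%, and left Rbbp7 overlapping. Scaling to the protein-coding sum gave 3 higher and 1 lower, against 21.2% and 4.11%. Cbx7 overlapped in the deposited values and was higher without overlap after each of the 3 scalings.

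**Figure D1:**
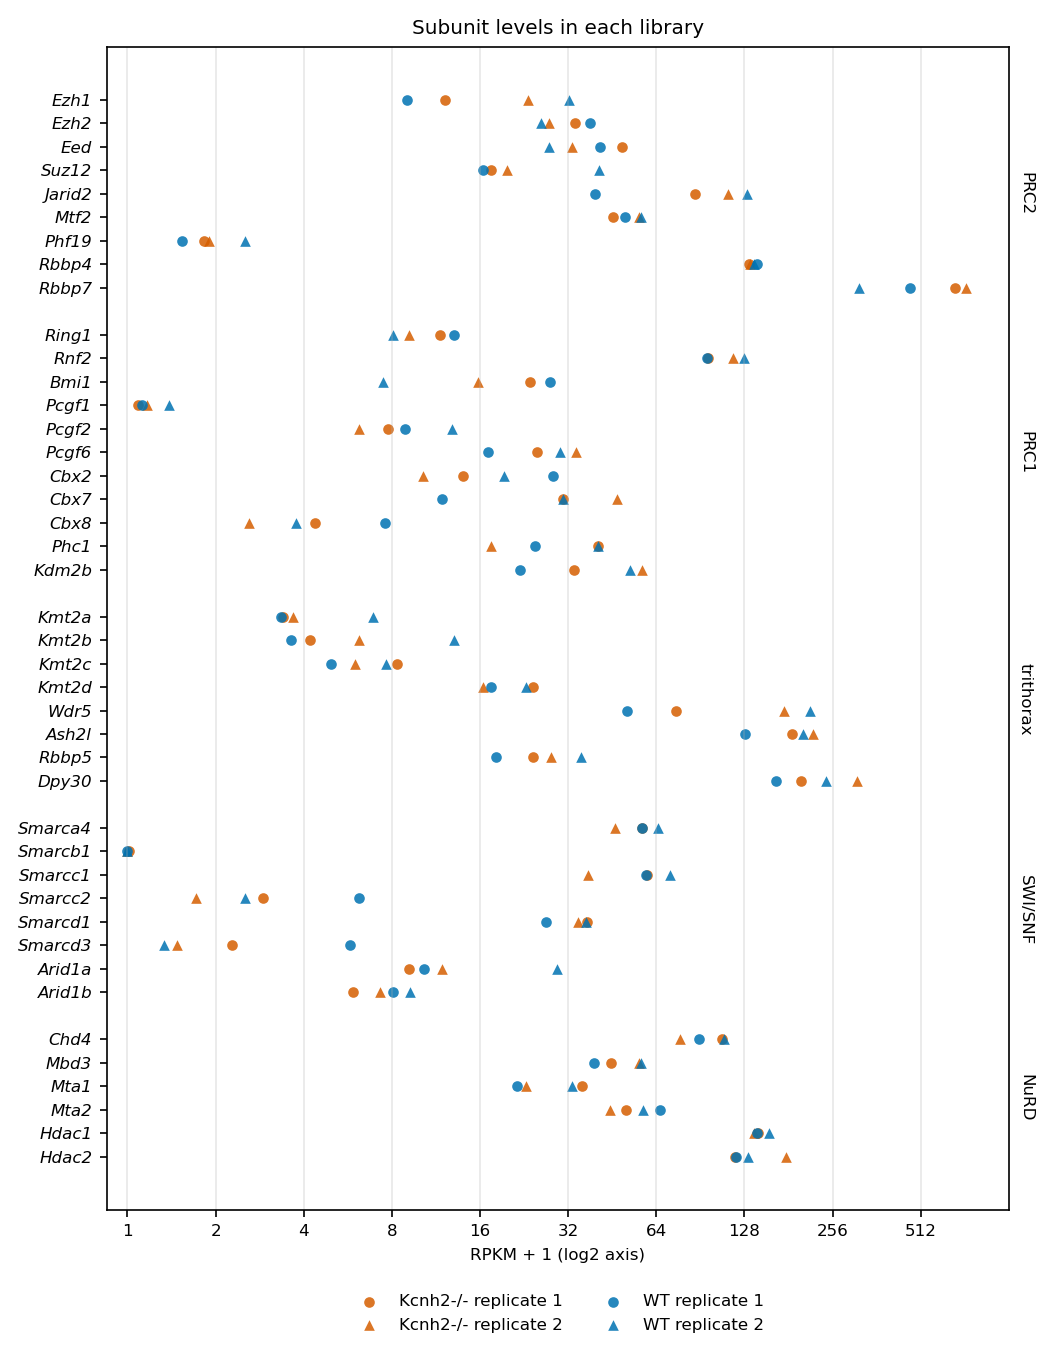
RPKM + 1 on a log2 axis for the 42 subunits in each of the 4 libraries, with Kcnh2-/- in orange, WT in blue, circles for replicate 1 and triangles for replicate 2. Most genes show the groups interleaved, Rbbp7 lies highest in every library, and Smarcb1 lies at the left edge in all 4.

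The subunits were mostly well expressed. Of the 42, 37 were at 1 RPKM or more in all 4 libraries and 8 averaged 100 RPKM or more over the 4. The median member that passed the filter stood above 71.4% of tested protein-coding genes by mean RPKM. The 3 members that did not pass were Phf19, Pcgf1 and Smarcb1, and 4 members share their locus in the files with another gene (Chd4, Jarid2, Smarca4 and Smarcb1), so their values rest on how the authors' tools divided overlapping reads.

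PRC2 had one subunit, Rbbp7, higher in both Kcnh2-/- libraries, while Ezh1, Ezh2, Eed and Suz12 overlapped between the groups and Rbbp4 was slightly lower. Rbbp7 (rn6 chromosome X, 33648681 to 33665821) encodes a histone-binding WD-repeat protein shared by PRC2, NuRD and other histone-handling complexes. It was at 671 and 729 RPKM in Kcnh2-/- and 471 and 315 RPKM in WT, and both Kcnh2-/- values lay above both WT values. Its log2 difference 0.86 ± 0.35 (SE, limma adjusted p = 0.980), with 0.51 within replicate 1 and 1.21 within replicate 2, did not pass. It is the only member on the X chromosome, where the 358 tested protein-coding genes had a median log2 difference of 0.60 (0.64 within replicate 1 and 0.59 within replicate 2), against -0.019 over 10479 autosomal ones. Of those X-linked genes 52.5% lay higher and 1.96% lower without overlap, against 15.4% and 16.4% of the autosomal ones. The Rbbp7 difference thus lay above the X median within replicate 2 and below it within replicate 1, and the part of X linkage in it was not tested. Its near-identical partner Rbbp4 (chromosome 5), which fills the same place in these complexes, was nearly level over the 4 libraries at 132 and 133 RPKM in Kcnh2-/- and 141 and 137 RPKM in WT. Rbbp4 was lower without overlap by a small amount (log2 difference -0.064 ± 0.24 (SE, limma adjusted p = 0.985)), and the sign turned after scaling to the protein-coding sum (0.19). How reads common to the paralogs were assigned is not recorded in the files.

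The promoter of Rbbp7 is shown because the gene was the only member higher without overlap. The RefSeq sequence (GRCr8, chrX:35562981-35563280, minus strand, 250 bases before to 50 after the gene's start) has its CG dinucleotides in capitals; CG sites free of methylation are where the CXXC domain of Kdm2b, a PRC1 subunit listed below, binds in mouse cells.
Rbbp7: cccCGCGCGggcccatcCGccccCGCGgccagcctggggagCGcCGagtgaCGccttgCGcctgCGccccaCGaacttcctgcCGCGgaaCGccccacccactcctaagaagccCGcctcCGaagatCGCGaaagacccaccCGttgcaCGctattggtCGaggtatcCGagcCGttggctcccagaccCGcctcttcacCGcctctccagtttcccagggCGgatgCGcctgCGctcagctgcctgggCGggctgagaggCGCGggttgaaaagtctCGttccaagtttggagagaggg
It holds 33 CG dinucleotides in 300 bases, more than 92.5% of the 33469 rat promoters in the table. RefSeq promoters matched 36 of the 42 members, 3 of them with more than 1 start. All 36 held at least 1 CG, as did 94.5% of all promoters, and taking each gene's richest start their median was 31.5 CG, against 7 over all promoters. A GC box (GGGCGG or its reverse complement CCGCCC) stood in at least 1 listed start of 29 of the 36, against 33.1% of all promoters. Dpy30 held it only at its start with fewer CG. All promoters were counted singly in these comparisons, which favours members with more than 1 start. These matches describe the letters only.

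Both catalytic genes of PRC2, the methyltransferases Ezh2 and Ezh1, differed in opposite directions between replicate numbers. Ezh2, the main enzyme of dividing cells, was at 32.9 and 26.4 RPKM in Kcnh2-/- and 37.05 and 24.9 RPKM in WT. Ezh1, more common in resting cells, was at 11.2 and 22.3 RPKM in Kcnh2-/- and 8.004 and 31.3 RPKM in WT. Ezh2 was thus lower and Ezh1 higher in replicate 2 of both groups, and neither separated Kcnh2-/- from WT (log2 differences -0.042 and -0.018). The log2 ratio of Ezh2 to Ezh1 within a library was 1.56 and 0.25 in Kcnh2-/- and 2.21 and -0.33 in WT. Eed, which binds the mark that PRC2 writes and stimulates the enzyme, was at 48 and 31.9 RPKM in Kcnh2-/- and 40.1 and 26.5 RPKM in WT. It was higher in Kcnh2-/- within both numbers by similar amounts (0.25 and 0.26), though the groups overlapped. Suz12, the scaffold of the complex, was at 16.4 and 18.8 RPKM in Kcnh2-/- and 15.4 and 39.9 RPKM in WT, where WT replicate 2 stood apart from the other 3 libraries.

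Among the accessory subunits that direct PRC2 to chromatin, Jarid2 was the most abundant and the most variable. Jarid2, which helps recruit PRC2 and is needed for its work in differentiating mouse cells, was at 85.5 and 111 RPKM in Kcnh2-/- and 38.5 and 129.9 RPKM in WT, lowest in WT replicate 1. Mtf2, a Polycomb-like protein that binds DNA rich in CG, was at 44.4 and 55.1 RPKM in Kcnh2-/- and 49.1 and 55.7 RPKM in WT, close to level. Phf19, its relative, was near the limit of the filter at 0.818 and 0.894 RPKM in Kcnh2-/- and 0.533 and 1.52 RPKM in WT and was not tested. Jarid2 and Mtf2 mark different forms of PRC2, and their log2 ratio was 0.94 and 1.01 in Kcnh2-/- and -0.35 and 1.22 in WT. Both Kcnh2-/- ratios lay between the WT ratios. Over the 8 tested PRC2 members the median log2 difference was -0.030 (0.17 within replicate 1 and -0.028 within replicate 2). Of these 8, 1 was higher and 1 lower without overlap (12.5% each), against 16.7% and 15.3% of all genes tested.

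PRC1 held the largest differences of either sign, and they were in the CBX subunits, the chromodomain proteins that dock canonical PRC1 on methylated H3. Cbx2 (rn6 chromosome 10, 108132104 to 108140935), which compacts chromatin, was at 12.96 and 9.21 RPKM in Kcnh2-/- and 27.4 and 18.4 RPKM in WT. Both Kcnh2-/- values were below both WT values, by -1.02 within replicate 1 and -0.92 within replicate 2. Its log2 difference -0.97 ± 0.34 (SE, limma adjusted p = 0.980) did not pass (unadjusted p = 0.0408). Cbx7 (rn6 chromosome 7, 121136057 to 121153383), the main CBX protein of self-renewing mouse embryonic stem cells, was at 29.7 and 45.8 RPKM in Kcnh2-/- and 10.9 and 29.8 RPKM in WT. The Kcnh2-/- value was higher within each replicate number, by 1.37 within replicate 1 and 0.61 within replicate 2. The groups still touched, since Kcnh2-/- replicate 1 was just under WT replicate 2, and the log2 difference 0.99 ± 0.55 (SE, limma adjusted p = 0.980) did not pass. Without each library in turn it ran from 0.30 to 1.67, lowest without WT replicate 1. Cbx8, which lies 7.14 kb from Cbx2 on chromosome 10, was at 3.37 and 1.605 RPKM in Kcnh2-/- and 6.56 and 2.77 RPKM in WT, lower in Kcnh2-/- within each number (-0.79 and -0.53) with overlapping groups.

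The ratio of Cbx7 to Cbx2 within a library does not depend on the scaling between libraries. Cbx7 made up 69.6% and 83.3% of the 2 genes' RPKM in Kcnh2-/- and 28.4% and 61.8% in WT. On the log2 scale the ratio was 1.19 and 2.31 in Kcnh2-/- and -1.33 and 0.70 in WT, higher in both Kcnh2-/- libraries by a mean of 2.07. It was also higher in replicate 2 than in replicate 1 of each group, as naive pluripotency markers were. Leaving out each library in turn gave 1.06 (without WT replicate 1) to 3.09 (without WT replicate 2). With 2 libraries a group the smallest p an exact permutation test allows is 0.333, so no p is given. The ratio of Cbx8 to Cbx2 hardly differed, at -1.94 and -2.52 in Kcnh2-/- and -2.06 and -2.73 in WT.

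The promoters of Cbx7 and Cbx8 are set side by side because these CBX genes differed in opposite directions within both replicate numbers, with CG dinucleotides in capitals (RefSeq, GRCr8, chr7:113358297-113358596, minus strand, and chr10:104795451-104795750, minus strand).
Cbx7: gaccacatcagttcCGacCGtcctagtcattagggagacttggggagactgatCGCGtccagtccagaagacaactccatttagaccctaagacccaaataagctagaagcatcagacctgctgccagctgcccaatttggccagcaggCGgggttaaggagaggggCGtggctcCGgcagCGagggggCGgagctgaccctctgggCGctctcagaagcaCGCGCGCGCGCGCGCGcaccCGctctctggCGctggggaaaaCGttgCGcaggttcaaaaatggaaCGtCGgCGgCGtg
Cbx8: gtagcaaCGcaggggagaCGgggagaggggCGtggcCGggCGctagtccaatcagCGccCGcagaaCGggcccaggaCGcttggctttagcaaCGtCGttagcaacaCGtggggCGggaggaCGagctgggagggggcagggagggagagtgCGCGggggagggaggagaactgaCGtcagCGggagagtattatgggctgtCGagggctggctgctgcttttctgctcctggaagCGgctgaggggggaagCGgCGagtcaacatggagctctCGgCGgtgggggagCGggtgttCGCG
They hold 26 and 27 CG dinucleotides and 1 GC box each, so the counts are alike where the expression differences were not. Cbx2, whose groups did not overlap, had no matched RefSeq promoter and could not be set beside Cbx7.

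The catalytic core of PRC1 did not follow genotype. Rnf2, the main ubiquitin ligase of the complex in mouse embryonic stem cells, was at 95.2 and 116 RPKM in Kcnh2-/- and 94.7 and 126 RPKM in WT, higher in replicate 2 of each group. Its paralog Ring1 was lower in every library at 10.7 and 8.16 RPKM in Kcnh2-/- and 12.05 and 7.04 RPKM in WT, and Rnf2 made up 89.9% and 93.4% of their summed RPKM in Kcnh2-/- and 88.7% and 94.7% in WT. The PCGF subunits decide which form of PRC1 is built. Pcgf2, of the canonical form, was at 6.77 and 5.19 RPKM in Kcnh2-/- and 7.87 and 11.9 RPKM in WT, lower without overlap (log2 difference -0.62 ± 0.35 (SE, limma adjusted p = 0.980); -0.19 within replicate 1 and -1.05 within replicate 2). Bmi1, its paralog, was at 22.6 and 14.7 RPKM in Kcnh2-/- and 26.7 and 6.44 RPKM in WT, with WT replicate 2 alone far below the rest. Pcgf2 was thus below Bmi1 in 3 libraries and above it in WT replicate 2. Pcgf6, of a variant PRC1 that silences germ cell genes in mouse embryonic stem cells, was at 24.1 and 33.01 RPKM in Kcnh2-/- and 16.1 and 28.9 RPKM in WT. Pcgf1, the partner of Kdm2b in another variant form, was below 1 RPKM in every library (0.0843 and 0.1696 in Kcnh2-/- and 0.121 and 0.3896 in WT) and was not tested. Kdm2b, which brings that form to CG islands, was at 32.6 and 56.2 RPKM in Kcnh2-/- and 20.8 and 50.9 RPKM in WT, higher in replicate 2 of each group by 0.77 in Kcnh2-/- and 1.25 in WT. Phc1, the polyhomeotic subunit that lets PRC1 cluster, was at 39.5 and 16.4 RPKM in Kcnh2-/- and 23.6 and 39.5 RPKM in WT, so the sign of its difference turned between numbers (0.72 within replicate 1 and -1.22 within replicate 2). Over the 10 tested PRC1 members the median was -0.024 (-0.078 within replicate 1 and 0.0078 within replicate 2). Of these 10, 0 were higher and 2 lower without overlap (20%), against 16.7% and 15.3% of all genes tested.

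**Figure D2:**
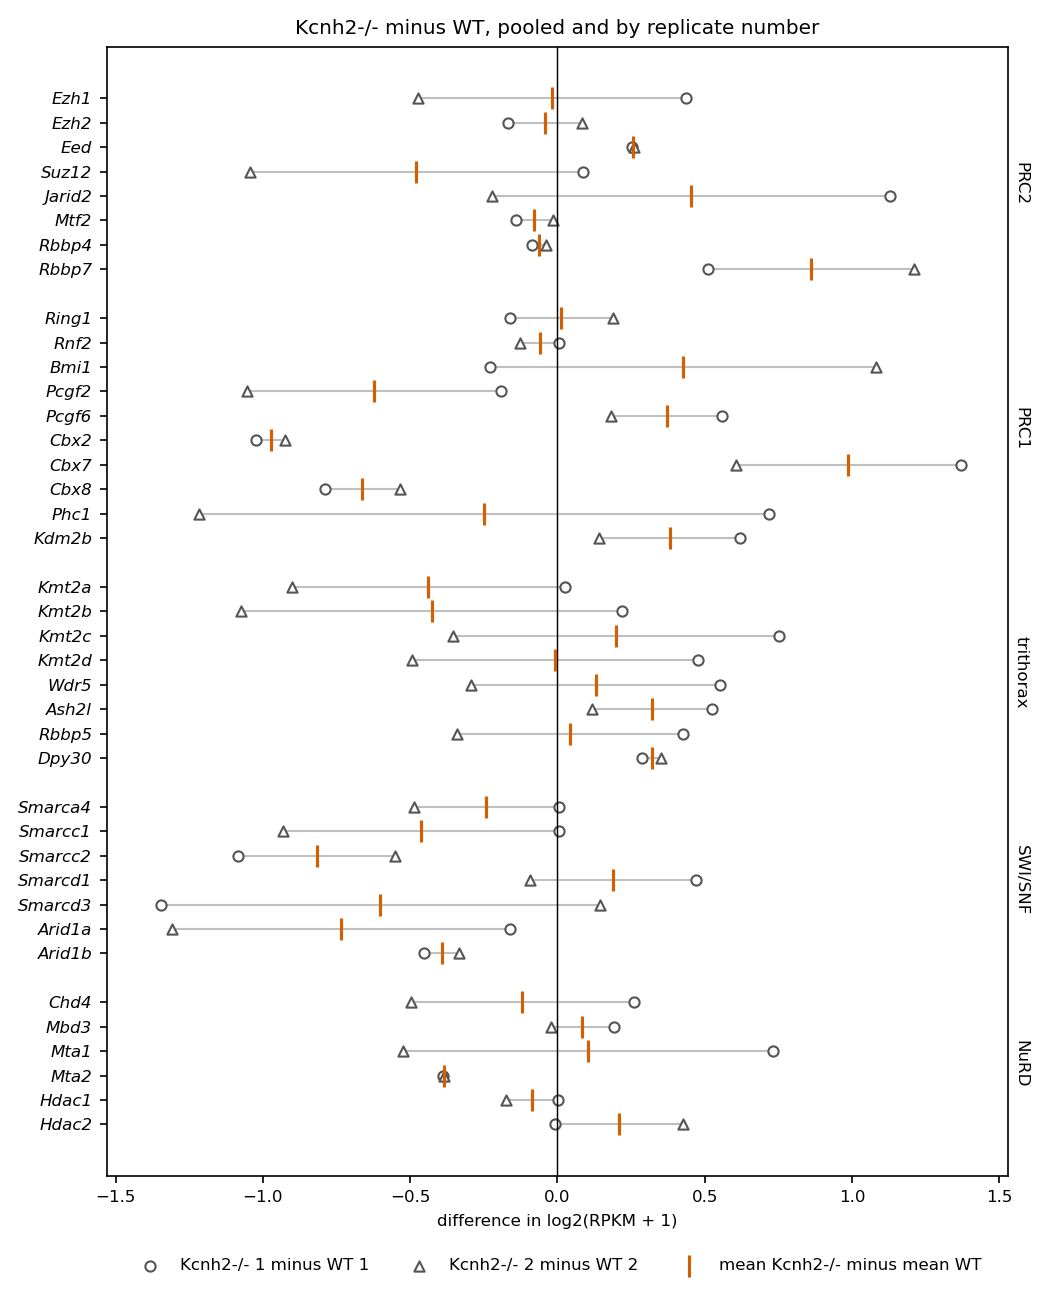
Difference in log2(RPKM + 1) between Kcnh2-/- and WT for the 39 tested subunits, as the pooled value (orange bar) and within replicate 1 (circle) and replicate 2 (triangle). Cbx2 and Rbbp7 are among those on one side of 0 within both numbers. The circle and the triangle fall on opposite sides of 0 for 23 subunits (59.0%, against 40.6% of all genes tested), 6 of the 8 trithorax ones among them.

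All 8 trithorax genes overlapped between the groups, where 32.0% of all genes tested did not. The sign was the same within both numbers in 2 of 8, Ash2l and Dpy30. It was opposite in 6 of 8 (75%), against 40.6% of all genes tested. With 8 genes these counts only describe the list. The shared core of the methyltransferase complexes was abundant. Wdr5, its WD-repeat hub, was at 73.7 and 174 RPKM in Kcnh2-/- and 49.9 and 214 RPKM in WT. Ash2l, which activates the enzyme, was at 185 and 219 RPKM in Kcnh2-/- and 128 and 202 RPKM in WT. In both genes WT replicate 1 was the lowest library. Dpy30, the small subunit that binds Ash2l, was at 199 and 310.4 RPKM in Kcnh2-/- and 163 and 243 RPKM in WT. Rbbp5, the remaining core part, was at 23.3 and 26.9 RPKM in Kcnh2-/- and 17.1 and 34.4 RPKM in WT. All 4 were higher in replicate 2 of each group, Wdr5 by 1.23 in Kcnh2-/- and 2.08 in WT. Ash2l had the smallest p of the group (log2 difference 0.32 ± 0.34 (SE, limma adjusted p = 0.980)), and Dpy30 differed by 0.29 within replicate 1 and 0.35 within replicate 2.

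Of the enzymes that this core serves, Kmt2a, Kmt2b and Kmt2c were lower than all 4 core genes in every library, while Kmt2d was at or below the level of Rbbp5. Kmt2a and Kmt2b are the Menin-bound methyltransferases that act at promoters of Hox and other developmental genes. Kmt2a was at 2.39 and 2.68 RPKM in Kcnh2-/- and 2.33 and 5.87 RPKM in WT. Kmt2b was at 3.22 and 5.198 RPKM in Kcnh2-/- and 2.62 and 12.1 RPKM in WT. In both genes WT replicate 2 was the highest library. Kmt2c and Kmt2d methylate H3 at enhancers. Kmt2c was at 7.33 and 4.98 RPKM in Kcnh2-/- and 3.94 and 6.65 RPKM in WT. Kmt2d was at 23.3 and 15.4 RPKM in Kcnh2-/- and 16.4 and 22.04 RPKM in WT, several-fold above Kmt2c in each library. Kmt2c is listed with a locus of 10211 bp on chromosome 4, 1063 kb from Kcnh2. Its log2 ratio to Kmt2d was -1.67 and -1.62 in Kcnh2-/- and -2.06 and -1.73 in WT, higher without overlap in Kcnh2-/- by 0.25, and by 0.083 without WT replicate 1 and 0.42 without WT replicate 2. The trithorax median was 0.086 (0.45 within replicate 1 and -0.35 within replicate 2); it was -0.32 without WT replicate 1 and 0.52 without WT replicate 2.

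SWI/SNF genes had the lowest median of the 5 groups, -0.46 (-0.16 within replicate 1 and -0.49 within replicate 2) over 7 tested. Of these 7, 1 was lower without overlap (14.3%) and none higher, against 15.3% and 16.7% of all genes tested. Smarca4, the ATPase of the complex in embryonic stem cells, was at 56.4 and 45.4 RPKM in Kcnh2-/- and 56.3 and 64.1 RPKM in WT. Smarcc1, the scaffold that predominates in mouse embryonic stem cells, was at 58.5 and 36.3 RPKM in Kcnh2-/- and 58.3 and 70.1 RPKM in WT, lowest in Kcnh2-/- replicate 2 and level between groups within replicate 1; its log2 difference -0.46 ± 0.33 (SE, limma adjusted p = 0.980) had the smallest p of the group and ran from -0.80 to -0.12 when a library was left out. Its paralog Smarcc2, which takes over in differentiating mouse cells, was low at 1.902 and 0.719 RPKM in Kcnh2-/- and 5.15 and 1.52 RPKM in WT, and Smarcc1 made up at least 91.9% of the pair in every library. Smarcc2 lay lower in Kcnh2-/- within both numbers (-1.08 and -0.55), with overlapping groups.

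Smarcd1 and Smarcd3 are alternative bridging subunits, Smarcd3 being known as the form of heart and muscle precursors. Smarcd1 was at 36.1 and 33.6 RPKM in Kcnh2-/- and 25.8 and 35.8 RPKM in WT. Smarcd3, 247 kb from Kcnh2 on chromosome 4, was at 1.27 and 0.471 RPKM in Kcnh2-/- and 4.76 and 0.332 RPKM in WT, highest in WT replicate 1. That library also had the highest mesoderm and muscle sum, made up mostly of Tagln and Actc1. The remaining 3 libraries were between 0.332 and 1.27 RPKM. Arid1a and Arid1b are alternative large subunits of the canonical BAF form of SWI/SNF. Arid1a was at 8.18 and 10.8 RPKM in Kcnh2-/- and 9.27 and 28.3 RPKM in WT, high in WT replicate 2 alone. Arid1b was at 4.89 and 6.29 RPKM in Kcnh2-/- and 7.06 and 8.19 RPKM in WT. It was lower without overlap (log2 difference -0.39 ± 0.31 (SE, limma adjusted p = 0.980); -0.45 within replicate 1 and -0.33 within replicate 2), though after scaling to the protein-coding sum its groups overlapped. Smarcb1, a core subunit, was listed at 0.0127 RPKM in Kcnh2-/- replicate 1 and at 0 in the other 3 libraries. Its listed locus is shared with Derl3, listed at 0 in all 4, and a 0 here can be a failed estimate, so nothing is drawn about Smarcb1.

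NuRD subunits were abundant. The 6 counted here, without Rbbp4 and Rbbp7, had the narrowest range of genotype differences of the 5 groups. The median over 6 was -0.00085, and the 6 ran from -0.39 to 0.21. Chd4, the remodelling motor, was at 106 and 75.9 RPKM in Kcnh2-/- and 88.3 and 108 RPKM in WT. Hdac1 and Hdac2 encode the deacetylases, which remove acetyl groups from histones. Hdac1 was at 141 and 137 RPKM in Kcnh2-/- and 141 and 154 RPKM in WT. Hdac2 was at 118 and 176 RPKM in Kcnh2-/- and 119 and 131 RPKM in WT, highest in Kcnh2-/- replicate 2. Hdac1 made up 54.5% and 43.7% of the pair in Kcnh2-/- and 54.3% and 54.1% in WT. Mbd3, which joins the motor to the deacetylases and is needed for mouse embryonic stem cells to leave self-renewal, was at 43.9 and 55.1 RPKM in Kcnh2-/- and 38.3 and 55.96 RPKM in WT. The scaffold gene Mta2 was at 49.3 and 43.3 RPKM in Kcnh2-/- and 64.7 and 56.9 RPKM in WT, lower without overlap by nearly equal amounts within the numbers (-0.39 within replicate 1 and -0.38 within replicate 2; log2 difference -0.39 ± 0.24 (SE, limma adjusted p = 0.980)). Its paralog Mta1 was at 34.7 and 21.98 RPKM in Kcnh2-/- and 20.4 and 32.1 RPKM in WT, with differences of opposite sign within the numbers (0.73 within replicate 1 and -0.53 within replicate 2). With Rbbp4 and Rbbp7, which NuRD also contains, the median over 8 was 0.010 and the range -0.39 to 0.86. That range was no longer the narrowest, as the trithorax genes ran from -0.44 to 0.32.

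**Figure D3:**
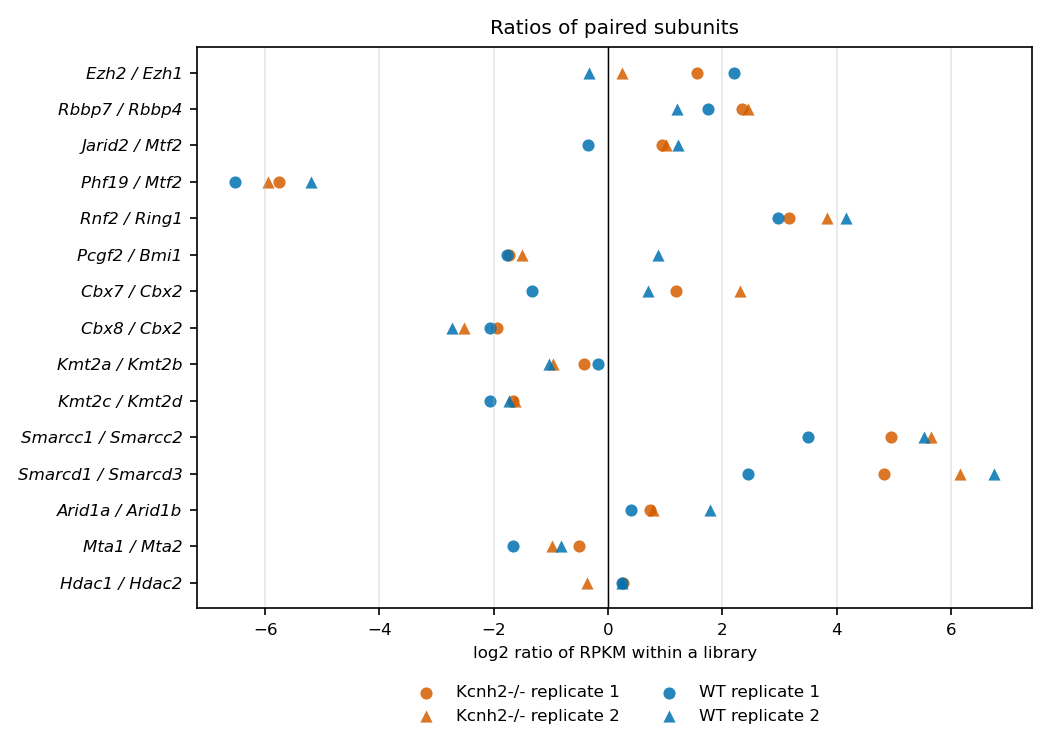
Log2 ratio of RPKM within each library for 15 pairs of paralogous or alternative subunits, with Kcnh2-/- in orange, WT in blue, circles for replicate 1 and triangles for replicate 2. Kcnh2-/- lies to the right of WT without overlap for Rbbp7 to Rbbp4, Cbx7 to Cbx2 and Kmt2c to Kmt2d, and the other 12 pairs overlap.

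Of the 15 pairs of paralogous or alternative subunits compared within libraries, 3 (20.0%) had ratios that did not overlap between groups. The levels of single genes tested gave 32.0%, but that is another measure, and no share was computed for ratios of other gene pairs. Cbx2 and Mtf2 each stand in more than 1 pair. The widest spread between the WT replicates was in Smarcd1 to Smarcd3, whose log2 ratio was 4.83 and 6.15 in Kcnh2-/- and 2.44 and 6.75 in WT. Of the 3 that separated, Rbbp7 to Rbbp4 was at 2.34 and 2.45 in Kcnh2-/- and 1.74 and 1.20 in WT, a difference of 0.93. The order of the paired genes was the same in all 4 libraries for Rbbp7 over Rbbp4, Mtf2 over Phf19, Rnf2 over Ring1, Cbx2 over Cbx8, Kmt2b over Kmt2a, Kmt2d over Kmt2c, Smarcc1 over Smarcc2, Smarcd1 over Smarcd3, Arid1a over Arid1b and Mta2 over Mta1. It turned in 1 library each for Ezh2 over Ezh1 (WT replicate 2), Jarid2 over Mtf2 (WT replicate 1), Bmi1 over Pcgf2 (WT replicate 2), Cbx7 over Cbx2 (WT replicate 1) and Hdac1 over Hdac2 (Kcnh2-/- replicate 2).

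Replicate number went with larger shifts than genotype for most subunits, as it did for most genes tested. Replicate 2 exceeded replicate 1 in both groups for 18 of the 39 members (46.2%, against 39.5% of all genes tested) and lay below it in both for 9. The mean replicate difference was larger in size than the genotype difference for 25 of the 39 (64.1%, against 58.8% of all genes tested). The median size of the replicate difference was 0.45 and that of the genotype difference 0.32 among members, against 0.37 and 0.29 over all genes tested. WT replicate 2 was the highest library for 18 of the 39 (46.2%), a position it held for 26.8% of all genes tested, and WT replicate 1 was the lowest for 17 (43.6%, against 34.3%). The signs within the numbers were opposite for 23 of the 39 (59.0%, against 40.6% of all genes tested). Of the others 7 were higher and 9 lower in Kcnh2-/- within both. The labels give no pairing of the numbers.

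**Figure D4:**
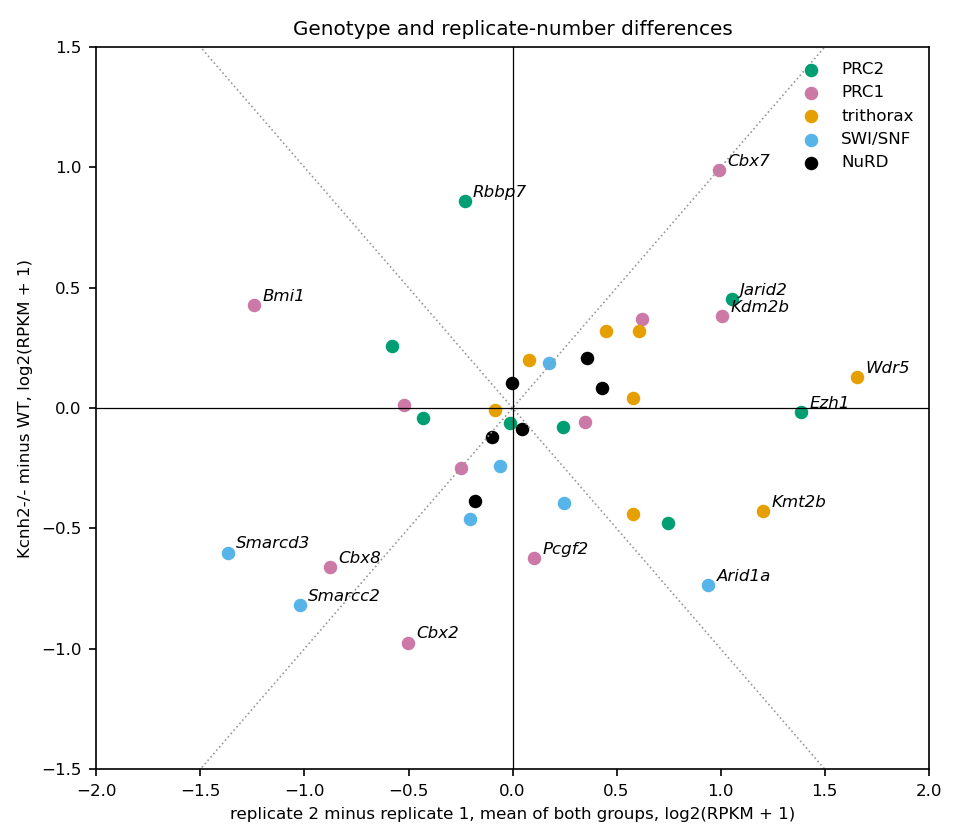
Genotype difference (y axis, Kcnh2-/- minus WT) against replicate difference (x axis, replicate 2 minus replicate 1, mean of both groups) in log2(RPKM + 1) for the 39 tested subunits, coloured by complex; dotted lines mark equal size. Wdr5, Ezh1, Bmi1 and Smarcd3 lie far out on the replicate axis, and Cbx7, Cbx2 and Rbbp7 farthest out on the genotype axis.

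Other subunits of the same complexes, from lists chosen with earlier results of these data known, were also tested. Of 62 listed genes 54 were tested, and limma called 0, with 1 at an unadjusted p under 0.05 (Kdm6a, which was called under 2 of the alternatives, as given below). Without overlap 7 were higher (12.96%) and 15 lower (27.8%), against 16.7% and 15.3% of all genes tested. The median log2 difference of these 54 was -0.10. Among PRC1 partners, Rybp, the adaptor of variant PRC1, was at 19.5 and 10.7 RPKM in Kcnh2-/- and 20.9 and 37.7 RPKM in WT (log2 difference -0.91 ± 0.45 (SE, limma adjusted p = 0.980)). Pcgf3 was at 16.5 and 15.01 RPKM in Kcnh2-/- and 24.8 and 19.02 RPKM in WT, lower without overlap like Rybp. The most abundant, the deubiquitinase gene Usp7, was at 119.6 and 109.7 RPKM in Kcnh2-/- and 60.8 and 123 RPKM in WT. Of the PRC2 partners Lcor was at 12.01 and 13.3 RPKM in Kcnh2-/- and 13.7 and 17.9 RPKM in WT. The zinc-finger cofactor gene Aebp2 was at 11.3 and 4.39 RPKM in Kcnh2-/- and 8.903 and 9.09 RPKM in WT, with overlapping groups. The 17 tested SWI/SNF partners divided both ways, with a median of 0.10, opposite in sign to that of the 7 subunits above. Without overlap 6 were higher (35.3%) and 5 lower (29.4%), against 16.7% and 15.3% of all genes tested. Actl6a, an actin-related subunit chosen here after its values were seen, was at 49.3 and 54.5 RPKM in Kcnh2-/- and 43.3 and 40.2 RPKM in WT, higher without overlap. By the smallest p, Pbrm1, the defining subunit of the PBAF form, was at 22.8 and 20.02 RPKM in Kcnh2-/- and 29.3 and 48.3 RPKM in WT (log2 difference -0.79 ± 0.34 (SE, limma adjusted p = 0.980)). Bcl7a was at 4.18 and 3.25 RPKM in Kcnh2-/- and 5.76 and 8.29 RPKM in WT, also lower without overlap. The most abundant, Smarce1, was at 213 and 130.1 RPKM in Kcnh2-/- and 238 and 102 RPKM in WT and overlapped. In NuRD, Gatad2b was at 4.75 and 4.64 RPKM in Kcnh2-/- and 5.196 and 11.2 RPKM in WT. Cdk2ap1, the most abundant of that list, was at 147 and 122 RPKM in Kcnh2-/- and 136 and 105 RPKM in WT.

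In the trithorax list the smallest p belonged to the Y-linked gene listed as Kdm6a, which is related to an X-linked H3 demethylase gene. Both Kcnh2-/- libraries list it at 0, against 5.42 and 6.72 RPKM in WT (limma adjusted p = 0.344). It was called after scaling to the protein-coding sum (limma adjusted p = 0.00946) and on protein-coding genes with the replicate number as a term (limma adjusted p = 0.0123). X-linked protein-coding genes had a median log2 difference of 0.60, as given above. The groups thus differed in X-linked genes as well as in this Y-linked gene. Any difference in sex chromosomes between the cells was not tested and cannot be told apart from genotype in these libraries. The transcriptional coactivator gene Ncoa6 was at 0.987 and 1.56 RPKM in Kcnh2-/- and 2.04 and 3.42 RPKM in WT, lower without overlap. Wdr82, the most abundant of the list, was at 139 and 163 RPKM in Kcnh2-/- and 126 and 106 RPKM in WT, higher without overlap.

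Developmental genes that Polycomb represses in mouse embryonic stem cells were mostly silent or very low. Of 34 listed genes 7 passed the filter, and their median log2 difference was -1.26 (-1.87 within replicate 1 and -1.18 within replicate 2), against 0.0052 over all genes tested; limma called none of them and none was at an unadjusted p under 0.05. The filter can keep a low gene through its values in one group or replicate number alone, so this median only describes the genes that passed. All 7 were lower in replicate 2 than in replicate 1 of both groups, as were 3477 of the 12355 genes tested. Of the 7, 2 (28.6%), Lhx1 and Sox17, were lower in Kcnh2-/- without overlap, against 15.3% of all genes tested. The 3 most abundant were Cdkn2a, a cell cycle inhibitor gene, at 12.3 and 3.52 RPKM in Kcnh2-/- and 51.3 and 1.61 RPKM in WT, Foxa2 and Sox17. Foxa2, a pioneer factor of endoderm, was at 8.37 and 0.231 RPKM in Kcnh2-/- and 38.3 and 6.18 RPKM in WT. Sox17 was at 4.96 and 1.32 RPKM in Kcnh2-/- and 20.8 and 5.15 RPKM in WT. With protein-coding genes alone and the replicate number as a term, Foxa2 was called (limma adjusted p = 0.0240), against 0.747% of all genes tested there; the other 6 were not. Foxa2 and Sox17 also belong to the endoderm list above, so these values and those sums are not separate.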

How the data were processed

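Total RNA of 2 Kcnh2-/- and 2 WT libraries was depleted of ribosomal RNA and sequenced from strand-marking kits as paired 100 bp reads, per the labels' protocols. The authors used TopHat2 2.0.13 and Cufflinks 2.2.1 on rn6, per the submitters' processing notes, and deposited RPKM per gene, 1 table per library, with the symbol and locus (annotation release not given in the sources used here). Kcnh2-/- minus WT was fitted with limma 3.58.1 in R 4.3.3 (trend, two-sided, genotype only) on log2(RPKM + 1) for 12355 genes (at least 2 libraries at 1 RPKM or above), with Benjamini-Hochberg adjustment at 0.05. Such differences understate changes of low genes. The fit was checked on simulated data for the median size of planted differences only. How often a true difference would be called with so few libraries is not given here. Members were matched by symbol; protein-coding status came from RefSeq names (assembly GRCr8; 19341 of 32753 symbols matched), and promoters from RefSeq. Alternatives covered the pseudocount, filter, scaling, trend, replicate block, gene set and left-out libraries.

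The members and all lists were chosen with earlier results of these data known. All 42 members are named, with full statistics for those whose groups did not overlap and the smallest p of each complex; Cbx7 and Actl6a were added after their values were seen. Genes named from the other lists had the smallest p or the highest mean there. Plots were drawn with matplotlib 3.10.9 in Python 3.11.15, and tables with pandas 2.3.3.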

Additional observations from a re-analysis of the deposited data

How the results depend on the processing

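None of the 42 subunits was called under any of the 14 alternatives fitted, among them the replicate block. Of the 54 other subunits tested, Kdm6a was called under 2 of them, scaling to the protein-coding sum and protein-coding genes with the replicate block. Over all genes the 14 calls became 1 with no filter, 105 with scaling to the protein-coding sum, 3 with no variance trend, 28 with the replicate block, 3 with protein-coding genes only, and 81 with protein-coding genes and the replicate block together; the pseudocount of 0.1, the filter at 5 RPKM, median-of-ratios scaling and quantile normalization stayed within 1.5 times the count. Same-numbered libraries deviated together, which is a hint from the data and not the design. Pearson r of the replicate differences was 0.38 across all genes tested, 0.58 across the 10846 protein-coding ones and 0.66 across the 39 subunits. The block did not change a member's estimate; its lowest adjusted p among subunits was 0.370 (Cbx2), and 0.182 (Rbbp7) on protein-coding genes. Scaling to the protein-coding sum shifted the median of all genes to 0.22 and gave medians of 0.20 (PRC2), 0.22 (PRC1), 0.33 (trithorax), -0.21 (SWI/SNF) and 0.25 (NuRD), while quantile normalization gave NuRD -0.19. Subunits whose sign turned with that scaling to the sum, all but Kmt2d below the shift itself, were Ezh1 0.20, Ezh2 0.21, Mtf2 0.17, Rbbp4 0.19, Rnf2 0.19, Kmt2d 0.23, Smarca4 0.0084, Chd4 0.13, Hdac1 0.17. With quantile normalization they were Ezh1 0.0049, Kmt2d 0.020, Wdr5 -0.055, Mbd3 -0.028, Hdac2 -0.065. Counts without overlap, an alternative chosen after seeing the data, were 2 higher and 4 lower with median-of-ratios scaling, 1 higher and 10 lower with quantile normalization, and 3 higher and 1 lower with the protein-coding sum. Leaving out each library in turn moved the medians over -0.11 to 0.095 (PRC2), -0.20 to 0.075 (PRC1), -0.32 to 0.52 (trithorax), -0.55 to -0.29 (SWI/SNF) and -0.20 to 0.15 (NuRD). The following log2 differences changed sign when a library was left out: Arid1a -1.49 to 0.022, Ash2l -0.0048 to 0.65, Bmi1 -0.52 to 1.38, Chd4 -0.36 to 0.12, Eed -0.035 to 0.55, Ezh1 -0.94 to 0.90, Ezh2 -0.32 to 0.24, Hdac2 -0.079 to 0.50, Jarid2 -0.41 to 1.32, Kdm2b -0.24 to 1.01, Kmt2a -0.96 to 0.084, Kmt2b -1.35 to 0.50, Kmt2c -0.12 to 0.52, Kmt2d -0.29 to 0.28, Mbd3 -0.18 to 0.35, Mta1 -0.21 to 0.42, Mtf2 -0.23 to 0.074, Pcgf6 -0.034 to 0.78, Phc1 -0.86 to 0.36, Rbbp5 -0.44 to 0.52, Ring1 -0.34 to 0.36, Rnf2 -0.27 to 0.15, Smarcd1 -0.040 to 0.42, Smarcd3 -1.66 to 0.46, Suz12 -1.14 to 0.18, Wdr5 -0.91 to 1.17. Of the 13 that kept their sign, 10 moved by over 1.5 times: Arid1b -0.55 to -0.24, Cbx7 0.30 to 1.67, Cbx8 -1.16 to -0.16, Dpy30 0.0014 to 0.64, Hdac1 -0.15 to -0.020, Pcgf2 -0.89 to -0.35, Rbbp7 0.57 to 1.15, Smarca4 -0.40 to -0.089, Smarcc1 -0.80 to -0.12, Smarcc2 -1.46 to -0.17. The cause was not tested. Medians without members on chromosomes 3, 13, 16 and X stayed within the replicate spread. With 1 library left in a group, that library is assumed to vary like the other group. Absolute depth is unknown, so counting error could not be given.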
